A study of Homo sapiens with 16 samples.

Results

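The genes described here encode the proteasome, the barrel-shaped protease that degrades ubiquitin-tagged proteins. They were chosen by name, as the protein-coding genes of GENCODE release 29 whose symbol is PSM followed by a letter from A to G and a number. The rule found 49 genes of 58295 in the annotation, 19884 of them protein-coding, and used no measured value. Of the 49 genes, 48 encode subunits, regulators or assembly chaperones of the proteasome, and PSMC3IP, a recombination cofactor, matched by symbol only. The 5 interferon-inducible members PSMB8, PSMB9, PSMB10, PSME1 and PSME2 were set against the 44 others.

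RNA was measured in JSL1, a clone of Jurkat, a cell line grown from a human T cell leukemia. There were 3 genotypes: wild type (WT), a CRISPR-Cas9 line labelled as an exon 9 knock-out of HDAC7 (dE9), and a CRISPR-Cas9 line labelled as an exon 9 knock-in of HDAC7 (iE9). The HDAC7 protein is a histone deacetylase of class IIa, known from thymocyte development. Each was harvested after 48 h in growth medium alone or with 20 ng/mL of the phorbol ester PMA, which switches on protein kinase C as the lipid second messenger of T cell receptor signalling does. There were 2 WT, 3 dE9 and 3 iE9 libraries per treatment, 16 in all, and the labels do not say whether an edited line is 1 clone or whether replicates are separate cultures. The p-values therefore measure the spread between these libraries, which may be technical.

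The core particle of the proteasome, the 20S barrel, stacks rings of alpha subunits, which form the gate, around rings of beta subunits, which hold the catalytic sites. The catalytic subunits PSMB5, PSMB6 and PSMB7 are made in most cells, and interferon and other inflammatory signals induce PSMB8, PSMB9 and PSMB10, which take their places in newly built immunoproteasomes. The 19S cap unfolds substrates with the ATPases PSMC1 to PSMC6 and binds and deubiquitinates them with PSMD subunits, and the 11S ring of PSME1 and PSME2 opens the gate without ATP. Lymphoid cells hold immunoproteasomes, and the peptides these cut are loaded on MHC class I.

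Libraries held between 14536537 and 21888896 estimated counts. HDAC7 transcripts with exon 9 made up 43.08% to 53.76% of the HDAC7 transcripts that span it in WT libraries, 0% to 7.371% in dE9 and 42.31% to 74.85% in iE9, so the libraries of iE9 and WT overlapped. All 9 T cell markers had a median above 1 TPM (a level scaled by transcript length and library total), and 0 of 5 myeloid markers did. Of 4 B cell markers 1 did, CD79A, and their sum was 8.94 to 188 TPM without PMA and 14.8 to 539 with it, while MS4A1 was at 0 in 12 of 16 libraries. CD79A and the erythroid marker HBA1 were called higher with PMA in dE9, and the endothelial marker PECAM1 in dE9 and iE9. Their part in the results was not tested. The mitochondrial genome's share of counts was highest in the iE9 libraries numbered 1, at 9.17% without and 12.81% with PMA, against 3.00% to 6.39% elsewhere. Those libraries stood apart for the proteasome too: each had the lowest level among the iE9 libraries of its treatment for 44 of 48 measured members. The dE9 libraries numbered 3 had the lowest levels of the inducible members in dE9 cells, for 5 of 5 members with PMA and 3 of 5 without. Where a result rests on these pairs of libraries, it is also given without them.

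The interferon-stimulated response element is the promoter sequence through which interferon-activated transcription factors of the IRF family raise many genes. Its core, searched on both strands as GAAA, any 2 bases and GAAA again, was looked for in RefSeq promoters of the GRCh38.p14 build from 250 bases before to 50 after the gene's start. Promoters of 43 of the 49 members were found in that set. The core occurred in 6 of these 43 and in 3.65% of all 27305 promoters. The 4 sites shown are the members with an identical core, 3 of them inducible members, with the match in capitals and the gene's own strand written 5′ to 3′. In PSMB10 (chr16:67936852-67936881, minus strand), PSME2 (chr14:24146619-24146648, minus strand) and PSMG4 (chr6:3258904-3258933, plus strand) the core began 21, 28 and 33 bases before the start, and in PSME1 (chr14:24136189-24136218, plus strand) it lay on the opposite strand, from base 6 after the start. In GENCODE the 4 windows lie in exon sequence annotated as untranslated, of the transcripts PSMB10-201, PSME2-201, PSMG4-202 and PSME1-201, whose models begin further upstream.
PSMB10: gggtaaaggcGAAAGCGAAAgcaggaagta
PSME2: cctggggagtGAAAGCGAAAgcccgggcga
PSMG4: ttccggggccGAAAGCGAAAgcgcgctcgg
PSME1: gccctaccgcTTTCGCTTTCccttcgcggt
The same letters GAAAGCGAAA stand in the first 3 sequences, and the PSME1 match is their reverse complement. The other matches were in PSMA4, as GAAAATGAAA 240 bases before the start, and in PSMB4, as GAAAAAGAAA 68 bases before it. PSMB8 and PSMB9 held no match to the core in this window. The letters TTCNNNGAA, where N is any base, were searched too, as the GAS motif. They occurred in 5 of the 43 member promoters, 0 of them of inducible members, and in 7.88% of all promoters. A match describes letters only.

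Of the 49 members, 48 passed the filter on low counts and were tested with edgeR's quasi-likelihood test, with adjusted p-values over all 18073 genes tested. The exception was PSMB11, the thymus-specific catalytic subunit, at no more than 0.318 TPM in any library. With PMA, subunits of the core and the cap and assembly chaperones fell in each genotype, and inducible catalytic subunits rose in dE9 and iE9, in the numbers that follow. At an adjusted p under 0.05, 13 of 48 members fell and 0 rose in WT cells, where 11.3% of all genes fell and 11.1% rose. DESeq2 called 2 higher and 13 lower in WT, and 24 members had an unadjusted p under 0.05. In dE9 cells 17 fell and 3 rose (background 16.5% and 17.1%), and in iE9 cells 28 fell and 2 rose (background 14.4% and 12.6%). The median log2 change over the members was -0.495 in WT, -0.46 in dE9 and -0.605 in iE9, against 0.03, 0.06 and -0.01 over all genes. In these bulk samples, fewer cells of a type and less RNA per cell cannot be told apart.

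**Figure D1:**
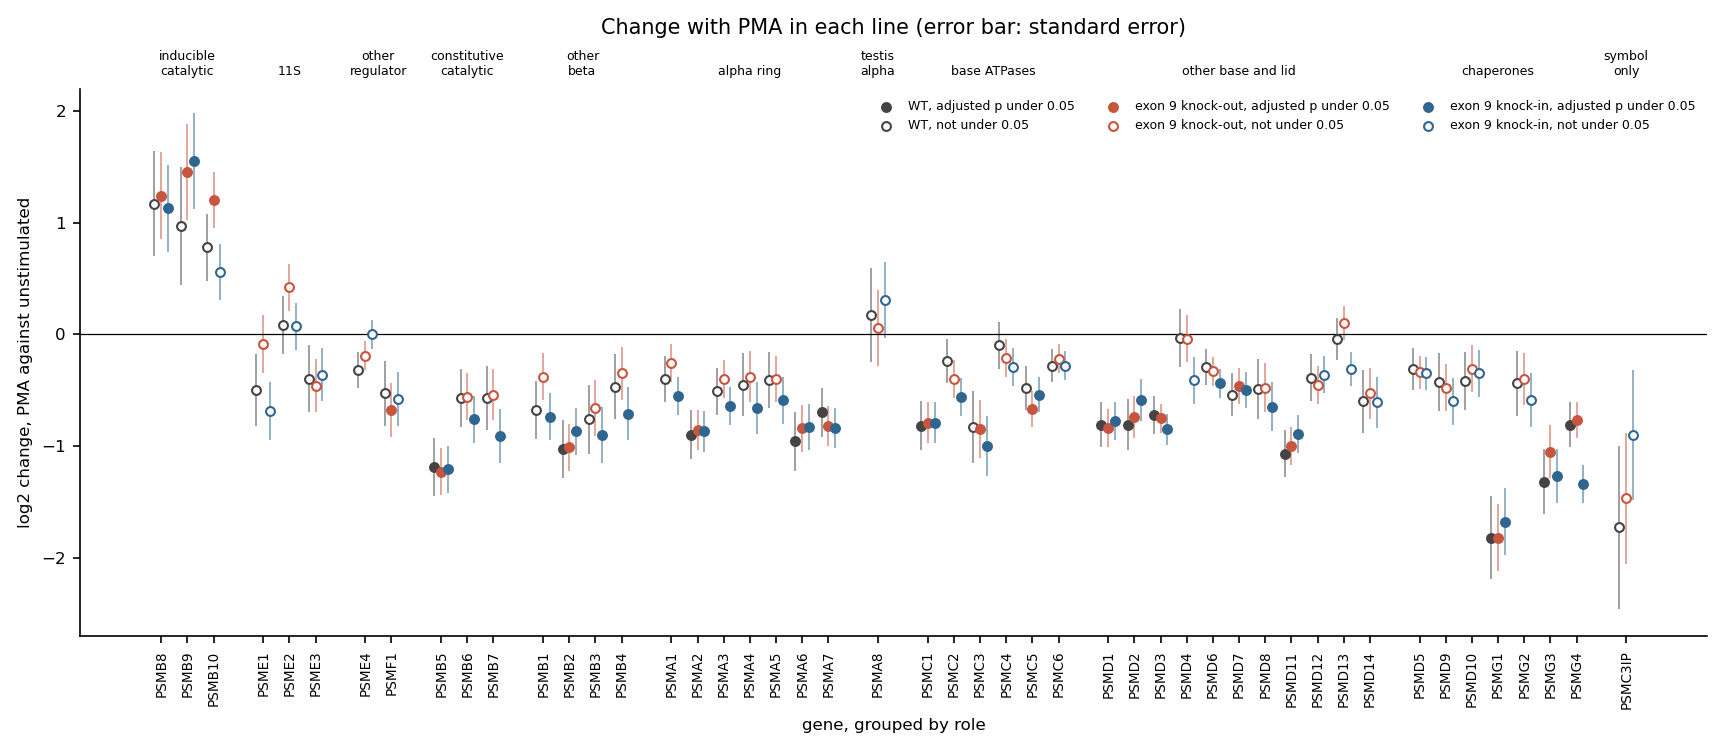
The vertical axis gives the log2 change with PMA of each of the 48 measured members, grouped by role along the horizontal axis, in WT (grey), dE9 (red) and iE9 (blue), with error bars of 1 standard error and filled points at an adjusted p under 0.05. The 3 inducible catalytic subunits lie above 0 in every line, and 41 of the 48 members lie below 0 in every line, with PSMG1 at the bottom.

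The estimate was below 0 in all 3 lines for 41 members and above 0 in all 3 for 5, which were PSMB8, PSMB9, PSMB10, PSME2 and PSMA8. The same 13 members fell in each line: PSMA2, PSMA6, PSMA7, PSMB2, PSMB5, PSMC1, PSMD1, PSMD2, PSMD3, PSMD11, PSMG1, PSMG3 and PSMG4. Of all genes, 8.08% fell in each line. No member rose in each line, against 7.62% of all genes. For 21 members the libraries with PMA all lay below those without in every line, against 14.4% of all genes. For 1 member, PSMB10, they all lay above, against 11.7% of all genes. The 12 members called lower in iE9 alone were not shown to respond differently there, since no difference in response between lines passed the test for any member.

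The counts depended on single libraries and on how replicates were treated. In WT, without unstimulated library 1 or 2 or PMA library 1 or 2, the count was 4, 7, 4 and 3 members, all lower, where 3.84%, 5.01%, 3.15% and 3.47% of all genes fell. In these fits 1 WT arm holds 1 library, which is assumed to vary like the other groups. Of the 13 calls in WT, those of PSMG1 and PSMD11 held without any 1 library, as did 15 calls in dE9 and 12 in iE9. In iE9 the count was 12 without unstimulated library 2, 16 without unstimulated library 3 and 17 without PMA library 1, where 18.2%, 19.6% and 22.6% of all genes were called. Without both dE9 libraries numbered 3, 4 members rose and 12 fell in dE9 (background 10.6% and 9.9%), and without both iE9 libraries numbered 1, 31 fell and 0 rose in iE9 by edgeR (background 14.2% and 12.3%). With the replicate number as a block, which the data of dE9 and iE9 allow, 37 members fell and 3 rose in dE9 (background 22.7% and 22.5%) and 40 fell and 3 rose in iE9 (background 21.1% and 18.7%).

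The inducible catalytic subunits had higher mean RNA levels with PMA in every line. PSMB8 (LMP7) is the chymotrypsin-like subunit of the immunoproteasome and lies in the MHC class II region at chr6:32840717-32844703. It overlaps PSMB9 and PSMB8-AS1 on the opposite strand, and since the strandedness of the libraries is not given, reads of these genes may not be separable. PSMB8-AS1 was assigned 3.51% to 14.25% as many counts as PSMB8. In CPM, counts scaled to library size by edgeR's TMM method, which compare a gene between libraries, PSMB8 was at 96.8 and 69.4 in WT cells without PMA and at 211 and 161 with PMA. In dE9 it was at 157, 164 and 54.2 without PMA and at 340.4, 399 and 147 with it, in the order of the library numbers. In iE9 it went from 80.0, 81.6 and 107 to 154, 196 and 238 CPM. The treated libraries lay above the untreated ones in WT and iE9, and in dE9 library 3 with PMA lay below libraries 1 and 2 without it. The log2 change was 1.17 ± 0.47 (SE) in WT, with an adjusted p of 0.0892, and PSMB8 rose by 1.24 ± 0.39 in dE9 (adjusted p = 0.0223) and by 1.13 ± 0.39 in iE9 (adjusted p = 0.0418).

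PSMB9 (LMP2), which takes the place of PSMB6 and is encoded next to PSMB8 and the peptide transporter TAP1 (chr6:32844136-32859585), had the largest estimated increase of the members in the edited lines. It was at 49.4 and 48.1 CPM without PMA and 99.2 and 92.5 with it in WT. Its dE9 levels were 79.7, 107 and 46.3 CPM without PMA and 219.6, 335 and 80.2 with it. In iE9 it was at 36.0, 48.15 and 81.8 CPM without PMA and at 127, 144 and 213 with it. The groups overlapped only in dE9, again through library 3. The log2 change was 0.97 ± 0.53 in WT (adjusted p = 0.201), and PSMB9 rose by 1.45 ± 0.43 in dE9 (adjusted p = 0.018) and by 1.55 ± 0.43 in iE9 (adjusted p = 0.0161).

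PSMB10 (MECL-1, chr16:67934502-67937087) takes the place of PSMB7, the trypsin-like subunit. Its level was 48.0 and 48.4 CPM without PMA and 93.8 and 72.0 with it in WT. Levels in dE9 went from 61.9, 58.1 and 57.3 to 144, 184 and 80.4 CPM, and in iE9 from 41.3, 54.7 and 61.95 to 65.4, 74.2 and 93.3. The treated libraries lay above the untreated ones in each line. The log2 change was 0.78 ± 0.30 in WT (adjusted p = 0.0778) and 0.56 ± 0.25 in iE9 (adjusted p = 0.109), and PSMB10 rose by 1.20 ± 0.25 in dE9 (adjusted p = 0.00206). With the replicate block, the adjusted p in iE9 was 0.0379.

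The calls of PSMB8 and PSMB9 rested on few libraries. In dE9, both were lost without unstimulated library 3 or PMA library 2, with adjusted p-values up to 0.085 for PSMB8 and 0.098 for PSMB9. In iE9, PSMB9 was lost without unstimulated library 1 or 2 or PMA library 3, and PSMB8 without any library but PMA library 1. Without both iE9 libraries numbered 1, the iE9 changes were 1.21 ± 0.50 for PSMB8 (adjusted p = 0.098) and 1.47 ± 0.54 for PSMB9 (adjusted p = 0.0641). Without both dE9 libraries numbered 3, PSMB8 rose by 1.21 ± 0.26, PSMB9 by 1.57 ± 0.36 and PSMB10 by 1.45 ± 0.24 in dE9. The call of PSMB10 in dE9 held without any 1 library, up to an adjusted p of 0.0106.

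**Figure D2:**
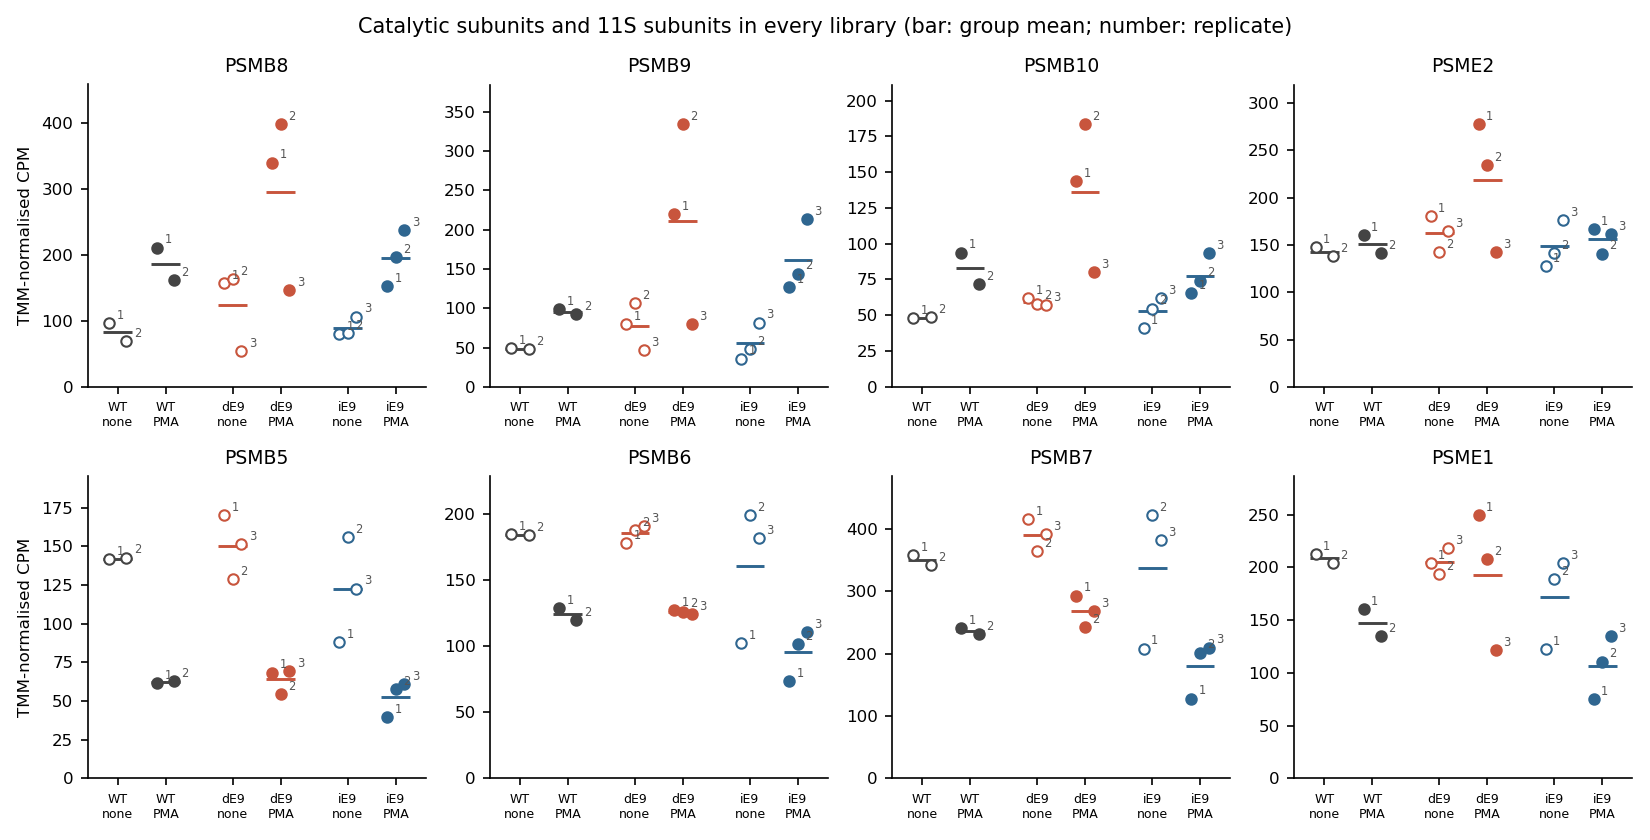
Each panel gives the TMM-normalised CPM of 1 gene in every library, without PMA (open points) and with PMA (filled points), for WT (grey), dE9 (red) and iE9 (blue), with bars at the group means and library numbers beside the points. The group means of PSMB8, PSMB9 and PSMB10 are higher with PMA in the upper row and those of PSMB5, PSMB6 and PSMB7 lower in the lower row, and dE9 library 3 sits below dE9 libraries 1 and 2 for PSMB8 and PSMB9.

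Of the 3 constitutive catalytic subunits, 1 fell in WT, 1 in dE9 and 3 in iE9, and 3 in dE9 with the replicate block. PSMB5, the chymotrypsin-like subunit (chr14:23016543-23035230), was at 142 and 143 CPM without PMA and at 61.7 and 63.0 with it in WT. In dE9 it was at 170.1, 129 and 151 CPM without PMA and 68.4, 54.35 and 69.2 with it, and in iE9 it went from 88.4, 156 and 123 to 39.5, 58.0 and 61.1. The groups did not overlap in any line. PSMB5 fell by 1.19 ± 0.26 on the log2 scale in WT (adjusted p = 0.00515), by 1.23 ± 0.21 in dE9 (adjusted p = 0.000553) and by 1.21 ± 0.21 in iE9 (adjusted p = 0.000893), although the WT call was lost without PMA library 1 (adjusted p = 0.0601).

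PSMB6, the caspase-like subunit (chr17:4796144-4798503), was at 185 and 184 CPM in WT without PMA and 129 and 119.9 with it. The dE9 libraries went from 178, 188 and 191 to 128, 126 and 124.5 CPM, and in iE9 from 103, 199 and 182 to 73.9, 102 and 110.6. The dE9 groups were well apart, and in iE9 untreated library 1 lay inside the range of the treated libraries. PSMB6 fell by 0.76 ± 0.21 in iE9 (adjusted p = 0.0149). The log2 change was -0.57 ± 0.26 in WT (adjusted p = 0.123) and -0.56 ± 0.21 in dE9 (adjusted p = 0.0514, or 0.00198 with the replicate block).

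PSMB7 (chr9:124353466-124415444) was at 358 and 342 CPM in WT without PMA and at 241 and 232 with it. The dE9 libraries went from 416, 364 and 392 to 293, 243 and 268 CPM, and in iE9 from 208, 422 and 383 to 128, 202 and 209.7. The groups overlapped only in iE9, where untreated library 1 lay just under treated library 3. PSMB7 fell by 0.91 ± 0.24 in iE9 (adjusted p = 0.0104), and the change was -0.57 ± 0.29 in WT (adjusted p = 0.172) and -0.54 ± 0.23 in dE9 (adjusted p = 0.0879, or 0.00102 with the replicate block). In iE9 the call of PSMB7 was lost without unstimulated library 2 (adjusted p = 0.0584), and that of PSMB6 without unstimulated library 2 or 3 or PMA library 1 (adjusted p up to 0.083).

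Levels per length, in TPM, allow the members of a catalytic pair to be compared. The constitutive catalytic subunits together held 1154 ± 0.648 TPM (SD, n = 2) in WT without PMA and 782 ± 14.6 (n = 2) with it, while the inducible ones held 296 ± 15.3 and 596 ± 67.1. In dE9 the constitutive sum went from 1257 ± 73.15 to 841 ± 96.9 TPM (n = 3 each) and the inducible sum from 426.5 ± 133 to 1039 ± 462. In iE9 the constitutive sum went from 1037 ± 288 to 638 ± 164 and the inducible sum from 316 ± 76.3 to 735 ± 209. The mean inducible sum with PMA was thus above the constitutive one in dE9 and iE9, and below it in WT. Single libraries went the other way, dE9 library 3 with 530.05 against 916 TPM and iE9 library 2 with 707 against 725. These sums count all transcripts. Those annotated as protein-coding held at least 97.7%, 93.28% and 97.78% of the TPM of PSMB5, PSMB6 and PSMB7 in every library. For PSMB10 they held 14.37% to 58.9%, and for PSMB8 77.4% to 96.15%. Whether the order of the sums holds on protein-coding transcripts alone was not tested.

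PSMB8 made up 36.2% and 28.4% of the summed TPM of PSMB8 and PSMB5 in WT libraries without PMA and 76.2% and 67.3% with it. The share was 44.3%, 51.8% and 23.4% without PMA and 80.3%, 85.1% and 63.2% with it in dE9, and 43.35%, 30.7% and 41.9% without and 73.3%, 71.5% and 75.6% with it in iE9. No library without PMA reached the share of any library with PMA, even across lines. Averaged over lines, the share was 36.9 percentage points higher with PMA. An exact permutation test, two-sided, with labels exchanged within lines gave p = 0.000833, the smallest that 2400 arrangements allow. For this and the other catalytic pairs, the test did not keep the pairing by library number that was taken for dE9 and iE9. Exchange within such pairs would allow fewer arrangements, so the smallest possible p would be larger.

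PSMB9 made up 22.1% and 21.9% of PSMB9 and PSMB6 in WT without PMA and 45.4% and 45.7% with it. The means were 30.4% ± 8.70 and 60.4% ± 15.9 in dE9, and 26.8% ± 6.15 and 63.7% ± 3.65 in iE9 (SD, n = 3). With PMA, dE9 library 3 was lowest of all libraries, at 42.8%, and dE9 library 2 highest, at 73.9%. The mean difference was 30.1 points (exact permutation p = 0.000833). PSMB10 made up 14.0% ± 1.14 of PSMB10 and PSMB7 in WT without PMA and 23.0% ± 2.19 with it (n = 2), 14.3% ± 0.821 and 30.1% ± 9.78 in dE9, and 14.6% ± 1.04 and 25.5% ± 2.81 in iE9 (n = 3). The untreated libraries of the 3 lines lay within a narrow band for this pair, from 13.2% to 15.6%. These shares count all transcripts. Protein-coding ones held 14.37% to 39.03% of PSMB10 TPM without PMA, and at least 97.78% of PSMB7 TPM in every library. The untreated band thus rests mostly on PSMB10 transcripts not annotated as coding. The mean difference of 11.9 points again gave the smallest p the exact permutation test allows, 0.000833. Its direction and p were the same on protein-coding transcripts alone. Benjamini-Hochberg adjustment over the 3 pairs leaves these p-values as they are, since they are equal. Within 1 line the smallest p such a test allows is 0.33 for WT and 0.1 for an edited line. Without the dE9 libraries numbered 3 the differences were 36.3, 31.5 and 13.5 points, and without the iE9 libraries numbered 1 they were 37.7, 30.1 and 11.7.

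**Figure D3:**
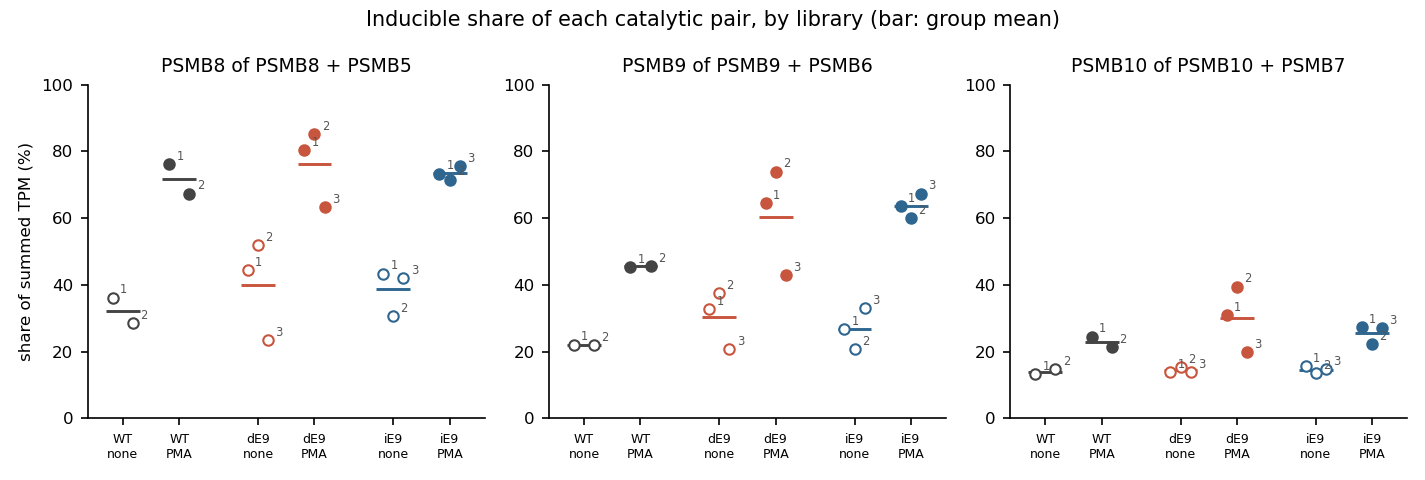
Each panel gives the inducible subunit's share of the summed TPM of a catalytic pair, in percent, in every library, open without PMA and filled with PMA, with bars at group means, for WT (grey), dE9 (red) and iE9 (blue). The share of PSMB8 passes 60% in every treated library, that of PSMB9 ranges from 42.8% to 73.9%, and that of PSMB10 does not pass 40%.

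The 11S subunits, although interferon also induces PSME1 and PSME2, had no change that passed the test on all 16 libraries without the replicate block. PSME1 (PA28 alpha, chr14:24136158-24138967) was at 213 and 204 CPM without PMA and 160.4 and 134.5 with it in WT. Its dE9 level went from 204, 193.5 and 219 to 249, 208 and 121.5 CPM, and in iE9 from 123, 189 and 204 to 74.8, 110.6 and 135. Libraries with PMA were lower in WT, and in dE9 library 1 was above and library 3 below all untreated ones. No line passed the test, with log2 changes of -0.50 ± 0.32, -0.09 ± 0.26 and -0.69 ± 0.26 in WT, dE9 and iE9 (adjusted p = 0.285, 0.82 and 0.0658). With the replicate block PSME1 fell in iE9, by 0.69 ± 0.18 (adjusted p = 0.0137). Without PMA library 3, the dE9 estimate was 0.16.

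PSME2 (PA28 beta, chr14:24143362-24147570), the partner of PSME1, was at 148 and 138 CPM without PMA and 160.4 and 141 with it in WT. It went from 181, 143 and 165 to 278, 235 and 143 CPM in dE9, and from 128, 142 and 176 to 166, 141 and 161 in iE9. Treated and untreated libraries overlapped in each line, and only dE9 libraries 1 and 2 with PMA stood above the rest. The log2 changes were 0.08 ± 0.26, 0.42 ± 0.21 and 0.07 ± 0.21 (adjusted p = 0.857, 0.134 and 0.833). Without both dE9 libraries numbered 3, PSME2 rose in dE9 by 0.67 ± 0.21 (adjusted p = 0.0373). PSME3, which forms a nuclear ring of its own and is not an interferon-inducible member, had changes of -0.40 ± 0.30, -0.46 ± 0.24 and -0.36 ± 0.24, and none passed the test, except in dE9 with the replicate block (adjusted p = 0.024). Of the 5 inducible members, 3 thus rose in dE9 and 2 in iE9 when all libraries were kept. In WT edgeR called 0 of them, although their 3 catalytic members all had higher libraries with PMA.

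The alpha ring forms the gate of the barrel, and its estimates were below 0 in each line for 7 of 7 subunits. Of these 7, 3 fell in WT, 3 in dE9 and 7 in iE9, with median log2 changes of -0.51, -0.40 and -0.66, and with the replicate block 7 of 7 fell in dE9 too. PSMA6 was at 564 and 491 CPM without PMA and 281 and 261 with it in WT. Its dE9 level went from 548, 427 and 504 to 284, 292 and 250.2 CPM, and in iE9 from 251, 412 and 389.7 to 144, 220.3 and 228. The treated libraries of PSMA6 lay below the untreated ones in each line, although untreated iE9 library 1 was near the treated WT and dE9 libraries. PSMA6 fell by 0.96 ± 0.26, 0.84 ± 0.21 and 0.83 ± 0.21 in WT, dE9 and iE9 (adjusted p = 0.0158, 0.00665 and 0.00923). PSMA2 fell by 0.90, 0.86 and 0.87 and PSMA7 by 0.70, 0.82 and 0.84. In TPM the ring summed to 3371 ± 154 without and 2338 ± 9.44 with PMA in WT (n = 2), to 3499 ± 156 and 2330 ± 89.9 in dE9, and to 2817 ± 577 and 1977 ± 494 in iE9 (n = 3). PSMA4, PSMA6 and PSMA7 had the highest median TPM of all members in both treatments.

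Of the 4 structural beta subunits without a catalytic site, 1 fell in WT, 1 in dE9 and 4 in iE9, and 4 of 4 fell in dE9 with the replicate block. PSMB2 was the member that fell in each line, by 1.03 ± 0.26, 1.01 ± 0.21 and 0.87 ± 0.21 (adjusted p = 0.0111, 0.00208 and 0.00686). Its level went from 375 and 345 to 180.0 and 173 CPM in WT, and its treated and untreated libraries did not overlap in any line. PSMB3 and PSMB1 fell in iE9, by 0.90 ± 0.25 and 0.74 ± 0.21, and their changes of -0.76 and -0.68 in WT did not pass the test.

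In the base of the 19S cap, the ATPases that unfold substrates, 1 of 6 fell in WT, 3 in dE9 and 4 in iE9, and 4 and 6 with the replicate block in dE9 and iE9. PSMC1 fell in each line, by 0.82 ± 0.22, 0.79 ± 0.18 and 0.79 ± 0.18 (adjusted p = 0.0154, 0.00365 and 0.00472). Its counts are uncertain, because the processed pseudogene PSMC1P1 was assigned 29.4% to 59.12% as many counts, whereas no other processed pseudogene of a member exceeded 0.5255% of its parent. PSMC3 fell in dE9 by 0.85 ± 0.26 and in iE9 by 1.0 ± 0.27, and its change in WT was -0.83 ± 0.32 (adjusted p = 0.0774). PSMC5 fell in dE9 by 0.67 ± 0.16 and in iE9 by 0.54 ± 0.16, and PSMC2 fell in iE9 by 0.56 ± 0.17. PSMC4 had changes of -0.10, -0.21 and -0.29 and PSMC6 of -0.28, -0.22 and -0.28, none of which passed the test.

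Among the 11 other subunits of the base and the lid, 4 fell in WT, 5 in dE9 and 7 in iE9, and 9 and 11 with the replicate block in dE9 and iE9. PSMD11, a scaffold subunit of the lid, was at 277 and 256 CPM without PMA and 132 and 123 with it in WT. Levels in dE9 went from 289, 266.5 and 268 to 149, 135.5 and 127 CPM, and in iE9 from 182, 266 and 240.5 to 99.7, 132 and 140.2. The treated libraries were below the untreated ones in every line, and below every untreated library of any line. PSMD11 fell by 1.07 ± 0.21, 1.0 ± 0.17 and 0.89 ± 0.17 (adjusted p = 0.00248, 0.00045 and 0.00146), and these calls held without any 1 library.

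The large base subunit PSMD1 fell by 0.81, 0.84 and 0.78 in WT, dE9 and iE9, and the lid subunit PSMD3 by 0.72, 0.75 and 0.85. Not all cap subunits moved. PSMD4 (RPN10), a ubiquitin receptor, had changes of -0.03 ± 0.26, -0.04 ± 0.21 and -0.41 ± 0.21, and PSMD13 of -0.04 ± 0.19, 0.10 ± 0.15 and -0.31 ± 0.15, none of which passed the test. With the replicate block both fell in iE9 (adjusted p = 0.00485 and 0.0376). PSMD14 (RPN11), the deubiquitinase of the lid, had changes of -0.60, -0.53 and -0.61 that did not pass (adjusted p = 0.138, 0.0851 and 0.0611), and passed with the replicate block in dE9 and iE9 (adjusted p = 0.000676 and 0.000376).

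The assembly chaperones held the largest decreases. PSMG1 (PAC1), which with PSMG2 starts the alpha ring (chr21:39174769-39183851), was at 87.7 and 79.3 CPM without PMA and 22.8 and 24.5 with it in WT. In dE9 PSMG1 went from 102, 80.4 and 81.3 to 37.9, 24.0 and 12.5 CPM, and in iE9 from 47.7, 76.0 and 61.6 to 15.4, 21.3 and 21.3. Treated libraries were below every untreated one. PSMG1 fell by 1.82 ± 0.37, 1.82 ± 0.30 and 1.68 ± 0.30, or 3.53-fold, 3.53-fold and 3.19-fold (adjusted p = 0.0034, 0.000423 and 0.00109), and no call was lost without any 1 library.

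PSMG3 and PSMG4, which act as a pair in alpha ring assembly, also fell in each line. PSMG3 was at 71.2 and 65.3 CPM without PMA and 31.9 and 22.8 with it in WT, and fell by 1.32 ± 0.29, 1.05 ± 0.24 and 1.27 ± 0.24 (adjusted p = 0.00543, 0.00342 and 0.00143). PSMG4 went from 41.4, 42.9 and 46.9 to 18.1, 16.9 and 16.8 CPM in iE9, and fell by 0.81 ± 0.20, 0.77 ± 0.16 and 1.34 ± 0.17 (adjusted p = 0.0108, 0.00247 and 6.68e-05). The WT calls were lost without PMA library 2 for both genes, and without unstimulated library 1 for PSMG4. The antisense gene PSMG3-AS1 was assigned 16.92% to 241.9% as many counts as PSMG3, with the same limit on separating strands, and PSMA3-AS1 was assigned 20.37% to 137.6% as many as PSMA3. PSMG2 and the base chaperones PSMD5, PSMD9 and PSMD10 had lower estimates in each line that did not pass the test, down to -0.60 for PSMD9 in iE9 (adjusted p = 0.0501). With the replicate block 7 of the 7 chaperones fell in dE9 and in iE9.

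The remaining members were few. PSMF1 (PI31), which binds and regulates the 20S barrel, fell in dE9 by 0.68 ± 0.24 (adjusted p = 0.0372), a call that was lost without any 1 of the 6 dE9 libraries, and had an adjusted p of 0.0826 in iE9, or 0.000598 with the replicate block. PSME4 (PA200), a nuclear activator, had changes of -0.32, -0.19 and 0.00 that did not pass. PSMA8, the testis-specific alpha subunit, had a median of 9.33 TPM without PMA and 10.3 with it, and no change passed. PSMC3IP, not a proteasome gene, had estimates of -1.73 ± 0.73, -1.47 ± 0.59 and -0.90 ± 0.58 (adjusted p = 0.101, 0.0684 and 0.272), and fell in dE9 with the replicate block (adjusted p = 0.00472). Summed over all members, the proteasome took 1.18% ± 0.0267 of all TPM in WT without PMA and 0.901% ± 0.00349 with it (n = 2), 1.26% ± 0.035 and 0.971% ± 0.0702 in dE9, and 1.06% ± 0.20 and 0.813% ± 0.184 in iE9 (SD, n = 3).

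PSMB10 differed from the other members in how its coding share, the percentage of TPM on protein-coding transcripts, moved with PMA. This comparison was chosen after its values were seen. A low share was not particular to PSMB10, whose median over the libraries was 39.4%. The medians of PSMD11, PSMC1, PSMD13 and PSMA5 were lower, at 36.8%, 36.1%, 25.7% and 0.855%, and those of the other members higher. Levels of PSMD11, PSMC1, PSMD13 and PSMA5 thus rest mainly on transcripts not annotated as coding, including PSMA5 in the alpha ring sum. By the median, the same holds for PSMB10 and for PSME4, PSMD12 and PSMD2, at 39.9%, 43.8% and 45.2%. Transcripts of PSMB10 annotated as protein-coding held 16.8 and 14.9 TPM in WT without PMA and 77.2 and 48.4 with it. In dE9 they went from 25.3, 17.8 and 20.0 to 110.7, 118 and 53.9 TPM, and in iE9 from 26.6, 19.5 and 24.0 to 51.2, 55.2 and 67.6. Treated libraries lay above every untreated one. The other PSMB10 transcripts, mainly 1 with a retained intron, went from 75.8 and 88.8 to 59.5 and 71.7 TPM in WT. They went from 92.6, 96.9 and 94.4 to 114.5, 149 and 81.4 in dE9, and from 41.6, 87.3 and 84.2 to 35.75, 60.9 and 81.4 in iE9. By library number, these transcripts were lower with PMA in WT, in iE9 and in dE9 library 3, and higher in dE9 libraries 1 and 2. The coding share of PSMB10 TPM was 14.4% to 18.2% without PMA and 40.3% to 56.5% with it in WT, 15.5% to 21.4% and 39.8% to 49.2% in dE9, and 18.3% to 39.0% and 45.3% to 58.9% in iE9.

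Among 47 members with a mean of at least 5 TPM and any transcript not annotated as coding, this share was higher with PMA without overlap in all 3 lines for 1, PSMB10, against 0.363% of 8549 genes, and lower for 1, PSMD6, against 1.02%. The retained-intron transcript shares its last exons with the coding one, so their split is an estimate. A further gene, AC040162.1, overlaps PSMB10 on the same strand.

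**Figure D4:**
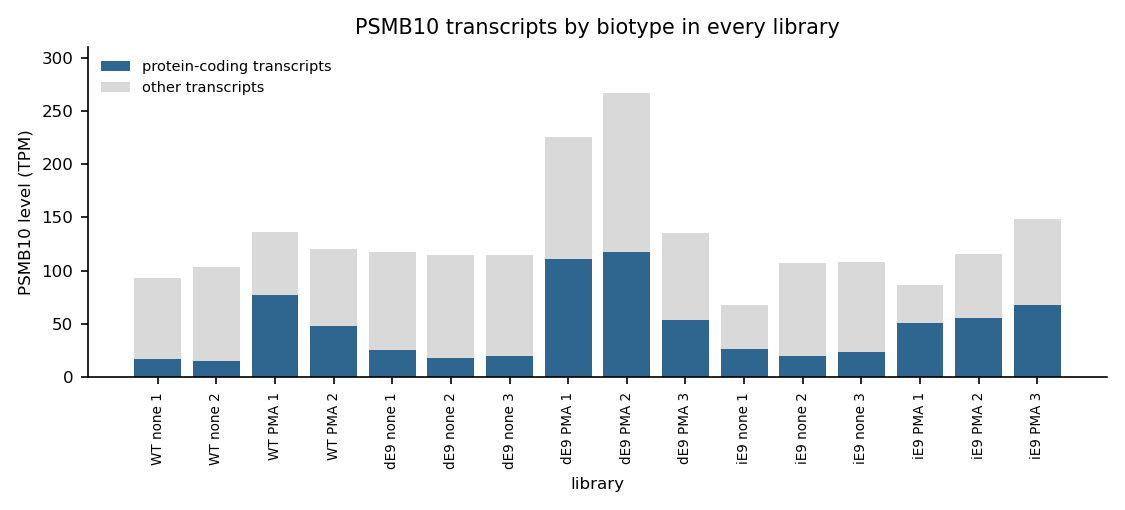
Stacked bars give the TPM of PSMB10 in each of the 16 libraries, split into protein-coding transcripts (blue) and other transcripts (grey). The blue part lies between 14.9 and 26.6 TPM in the 8 libraries without PMA and between 48.4 and 118 TPM in the 8 with it.

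The lines were then compared with each other within a treatment. These comparisons do not isolate exon 9 of HDAC7, whose share overlapped between iE9 and WT libraries. The level of HDAC7 differed too, with means of 83.2 TPM in iE9, 22.7 in WT and 24.05 in dE9 without PMA. With PMA the means were 189.3, 111.5 and 87.87 TPM, in the same order. Effects of line, exon 9 and HDAC7 level cannot be told apart here. With edgeR, 0 of 48 members passed in any of the 6 comparisons. In unstimulated cells the share of all genes called, in either direction, was 1.38% for iE9 against WT, 0.0% for dE9 against WT and 1.72% for iE9 against dE9. With PMA it was 1.12%, 0.0% and 2.61%. These comparisons share libraries, since each line enters a pair of them. At an unadjusted p under 0.05 there were 2, 0 and 2 members in unstimulated cells and 0, 3 and 10 with PMA, in the same order. DESeq2 called members in 1 of the 6 comparisons, iE9 against dE9 with PMA, where PSME1 and PSMB10 were lower. No member differed between lines in its response to PMA either, with 0.0% of all genes called in each of the 3 tests of that difference. There, 0, 0 and 1 members had an unadjusted p under 0.05 and DESeq2 called 0.

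In the comparisons with PMA, several inducible members differed between lines by estimates that edgeR did not call and that moved with single libraries. With PMA, PSMB9 was 1.14 ± 0.49 higher on the log2 scale in dE9 than in WT, PSMB10 0.71 ± 0.28 higher and PSME2 0.53 ± 0.24 higher, each with an adjusted p of 1 by edgeR. For PSMB9 the WT libraries at 99.2 and 92.5 CPM lay between dE9 library 3, at 80.2, and dE9 libraries 1 and 2, at 219.6 and 335. Of iE9 against dE9 with PMA, PSMB10 differed by -0.81 ± 0.25 (adjusted p = 0.0973) and PSME1 by -0.85 ± 0.26 (adjusted p = 0.0998). Without dE9 PMA library 3, or without both dE9 libraries numbered 3, 3 members were lower in iE9 than in dE9. Without dE9 PMA library 1, 1 member was called in dE9 against WT, 1 in iE9 against dE9 and 1 in the difference in response between iE9 and dE9.

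Other genes of the pathway are described from lists, whose counts stand against the shares of all genes that rose (11.1%, 17.1% and 12.6% in WT, dE9 and iE9) and fell (11.3%, 16.5% and 14.4%). Of 17 proteasome partners and ubiquitin receptors, 1 rose and 5 fell in WT, 1 and 5 in dE9, and 1 and 9 in iE9, with medians of -0.35, -0.37 and -0.47. UCHL5, a deubiquitinase bound to the cap, fell by 1.07, 1.10 and 1.17 in WT, dE9 and iE9, and USP14, another, by 0.75, 0.76 and 0.64. ZFAND5, a zinc finger protein that binds the 26S proteasome, rose by 0.72, 0.66 and 0.72. POMP, the chaperone that completes the core particle, had estimates of 0.50 ± 0.30, 0.40 ± 0.25 and 0.47 ± 0.25 that did not pass (adjusted p = 0.259, 0.233 and 0.172), and passed with the replicate block in dE9 and iE9 (adjusted p = 0.0176 and 0.00776). UBQLN4, a shuttle for ubiquitinated proteins, was lower in unstimulated iE9 cells than in WT, by 0.92 ± 0.21 (adjusted p = 0.0491, or 0.0581 with the replicate block), and than in dE9, by 1.03 ± 0.20 (adjusted p = 0.0165).

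NFE2L1 is the transcription factor that raises proteasome genes together when proteasome activity is limiting. Of 7 genes of its pathway, 1 rose and 3 fell in WT, 1 and 3 in dE9, and 1 and 2 in iE9, so that the share that rose, 1 of 7, was near that of all genes. NFE2L1 itself had changes of 0.11 ± 0.32, 0.04 ± 0.26 and 0.15 ± 0.26, none of which passed. NGLY1, which deglycosylates the NFE2L1 protein, fell by 0.71, 0.78 and 0.52, and DDI2, which cleaves it, fell by 0.74 in WT and by 0.83 in dE9. MAFF, a small MAF protein that can pair with NFE2L1, rose by 2.22 ± 0.33, 1.94 ± 0.27 and 1.52 ± 0.26. In promoters, the letters TGACNNNGC, where N is any base, a core that NFE2L1 dimers can bind, occurred in 13 of the 43 member promoters and in 13.6% of all, and CCAAT occurred in 20 of the 43 and in 35.7% of all.

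Of 13 regulators of the interferon-inducible subunits, 7 rose in WT, 9 in dE9 and 9 in iE9, and 0 fell, with medians of 1.27, 1.52 and 1.39. NLRC5, the transactivator of MHC class I genes, rose by 2.29 ± 0.47, 2.25 ± 0.38 and 1.97 ± 0.37. IRF9, a subunit of the factor that binds the interferon-stimulated response element, rose by 1.87, 1.52 and 1.39. Without PMA, IRF9 was already higher in iE9 than in WT, by 1.63 ± 0.33 (adjusted p = 0.029), at 31.2, 17.4 and 18.4 CPM against 6.03 and 8.42. IRF1 rose by 1.19 ± 0.38 in dE9 and by 1.25 ± 0.38 in iE9, and in dE9 with PMA it was at 176 and 132 CPM in libraries 1 and 2 and at 46.3 in library 3. Library 3 was also the lowest for PSMB8, PSMB9 and PSMB10, and the part of IRF1 in those levels was not tested.

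Downstream of the proteasome, of 11 genes that transport, trim or present peptides, 2 rose and 2 fell in WT, 3 and 2 in dE9, and 2 and 3 in iE9, which is near the shares of all genes in dE9. B2M, the light chain of MHC class I, rose by 1.36 ± 0.42, 1.88 ± 0.35 and 1.36 ± 0.34. TAP1, the transporter subunit encoded beside PSMB9, rose by 1.81 ± 0.49 in dE9 and by 1.52 ± 0.49 in iE9, with a change of 1.0 ± 0.60 in WT (adjusted p = 0.248). In dE9 with PMA it was at 294, 473 and 104 CPM, with library 3 again at the level of the WT libraries, 116 and 103. THOP1, a cytosolic peptidase that destroys peptides, fell by 1.33 ± 0.24, 1.22 ± 0.19 and 1.07 ± 0.19. Of 6 ubiquitin and ubiquitin-activating genes, 0 passed in WT and dE9, and 1 rose and 1 fell in iE9.

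**Figure D5:**
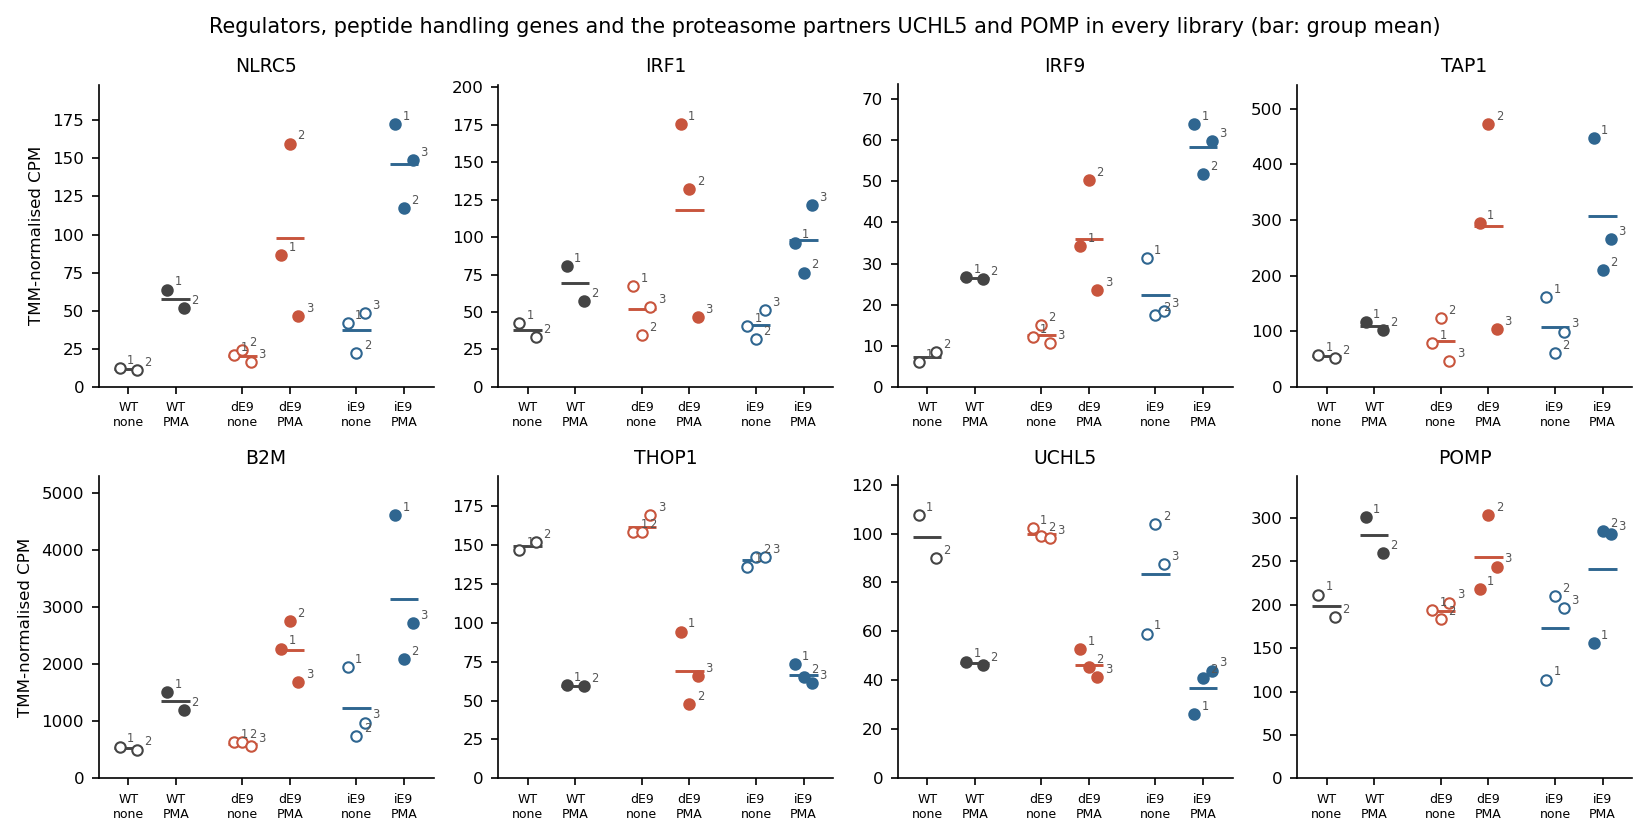
Each panel gives the TMM-normalised CPM of 1 gene outside the name rule in every library, open without PMA and filled with PMA, for WT (grey), dE9 (red) and iE9 (blue), with bars at group means and library numbers beside the points. The group means of NLRC5, TAP1 and B2M are higher with PMA, those of THOP1 and UCHL5 are lower, and dE9 library 3 lies below dE9 libraries 1 and 2 for NLRC5, IRF1, IRF9, TAP1 and B2M with PMA.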

How the data were processed

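Polyadenylated RNA of 16 Jurkat libraries was sequenced. The submitters' processing notes name Salmon, DESeq2 and hg38, and the sources used here give neither versions nor strandedness. The authors deposited estimated counts, TPM and effective lengths per transcript, per the file headers. A table of TPM per gene was deposited as well, with 0 columns left unused. The labels put all libraries at 48 h, and the series' design text names other times.

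All 205870 transcripts matched GENCODE release 29. Estimated counts were added up over each gene's transcripts and rounded. edgeR 4.0.16 (R 4.3.3) kept 18073 of 33304 genes with a count (filterByExpr, TMM) and fitted 1 coefficient per group over all 16 libraries with quasi-likelihood tests. A gene was called at a Benjamini-Hochberg adjusted p under 0.05, over all genes tested, and every adjusted p comes from this test unless named otherwise. The test was also run on simulated data, whose settings are not described here. No error rate or power for these libraries is drawn from that run. The common biological coefficient of variation was 31.8%. Replicates differed beyond sampling noise (lowest chi-square per degree of freedom 7.55).

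Libraries with the same number correlated in their deviations between treatments in dE9 (0.297, 0.305 and 0.24) and iE9 (0.441, 0.226 and 0.19). Libraries of unlike number correlated at -0.189 to -0.0417 in dE9. In iE9, unstimulated library 2 and PMA library 3 correlated at 0.153, and unstimulated library 3 and PMA library 2 at 0.0848. The pairing of iE9 libraries 2 and 3 is thus less clear than that of libraries 1. The numbers were taken to pair libraries in dE9 and iE9, from the data and not the labels. In WT the correlation was 0.073 and the numbers were not taken to pair. Shares of catalytic pairs used gene sums of TPM and an exact permutation test within lines, which did not keep the pairing by library number.

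The members and lists were chosen with earlier results of these data known. Always named were the 5 inducible members and PSMB5, PSMB6 and PSMB7, then up to 3 called members per direction and role with the smallest adjusted p, and up to 4 genes called in the most comparisons per other list. A gene of the regulator list is not reported here. Other named genes were chosen after their values were seen. Alternatives were DESeq2 1.42.0, RLE factors, no filter, only the groups compared, length offsets, protein-coding transcripts, the replicate block and leaving out libraries. Leaving out both dE9 libraries numbered 3 or both iE9 libraries numbered 1 was added after seeing the data.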

Additional observations from a re-analysis of the deposited data

How the results depend on the processing

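In WT, 39 members passed when only the groups compared were fitted, 3 higher and 36 lower, where 26.1% and 26.6% of all genes were, and 35 passed with the replicate block, against 36.5% of all genes, although the WT numbers were not taken to pair libraries. In dE9, 40 passed with the block. In iE9, 15 passed with only the groups compared, against 27.6% of all genes. Without 1 library, counts ranged from 3 to 7 in WT, 15 to 21 in dE9 and 12 to 37 in iE9, from 0 to 1 for dE9 against WT with PMA, 0 to 3 for iE9 against dE9 with PMA, and 0 to 1 for their difference in response. Between lines with PMA, no filter on low counts gave 1 member for iE9 against WT, 1 for dE9 against WT and 2 for iE9 against dE9, where DESeq2 gave 2 and leaving out the dE9 libraries numbered 3 gave 3. The cause was not tested. The pair shares kept direction and call in every alternative run, with differences of 34.1 to 39.1 points for PSMB8, 27.9 to 33.1 for PSMB9 and 10.3 to 13.6 for PSMB10 without 1 library, and 16.7 for PSMB10 from estimated counts. The sign turned for PSME1 in dE9, which ran from -0.32 to 0.16 without 1 library, the latter without PMA library 3, and was 0.20 without both libraries numbered 3, and for PSME2 in iE9, which was -0.07 with length offsets, -0.03 to 0.23 without 1 library, the former without unstimulated library 1, and -0.07 without both libraries numbered 1. Of the members' 63 calls with PMA, 29 held without any 1 library. Length offsets ended 10 of the 63 calls and RLE factors ended 3, while the block and DESeq2 ended none. The block ended the UBQLN4 call in iE9 against WT (adjusted p = 0.0581). With 2 WT libraries per treatment, precision is lowest there.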
